A study of Mus musculus with 6 samples.

Results

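The CD300 receptor family was followed in myeloid cells of the mouse pancreas after treatment with particulate β-glucan. The 7 members were the rows of the deposited gene count table whose Ensembl identifiers belong to Cd300a, Cd300c, Cd300c2, Cd300e, Cd300lb, Cd300ld and Cd300lf in the GENCODE vM21 annotation, out of 21780 genes listed. They were divided by the known function of their proteins into 2 inhibitory members, Cd300a and Cd300lf, and 5 activating members, Cd300c, Cd300c2, Cd300e, Cd300lb and Cd300ld. Live CD45+CD11b+ cells, a gate that takes most myeloid cells, had been sorted by FACS from pancreata 7 days after an intraperitoneal (IP) injection. The control group received PBS (3 libraries) and the other group received 1 mg of WGP (3 libraries), which are hollow whole glucan particles made from the wall of baker's yeast. All animals were wild-type C57BL/6 mice of 6 to 8 weeks, and the methods name both sexes without the sex behind each library. Every library is described as coming from an animal of its own, all within 1 experiment. The libraries were poly-A selected and sequenced as single-end reads.

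The CD300 genes encode single-pass receptors with 1 immunoglobulin-like domain that recognise lipids, such as the phosphatidylserine exposed on dying cells. The inhibitory receptors carry immunoreceptor tyrosine-based inhibitory motifs (ITIMs) in a long cytoplasmic tail, which recruit the phosphatases SHP-1 and SHP-2 when phosphorylated. The activating receptors have short tails and mostly signal through a charged residue in the membrane that pairs with adaptor proteins such as DAP12 and the Fc receptor γ chain, which then engage Src-family kinases and Syk. Both kinds are found on monocytes, macrophages, neutrophils, dendritic cells and mast cells, so the balance between them is thought to set the threshold of myeloid activation.

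All 7 members lie in 1 cluster on chromosome 11 (GRCm38). The features that divide them can be read from the reference genome. In the translated reference transcripts, Cd300a (318 residues) has a tail of 114 residues and Cd300lf (330 residues) has a tail of 123 residues after the predicted membrane segment. Each of these tails holds 5 tyrosines and 2 ITIM-like motifs, and neither membrane segment holds a charged residue. The tails of the activating members have between 3 residues in Cd300e and 31 residues in Cd300lb, and none of them holds such a motif. Cd300c, Cd300c2, Cd300e and Cd300lb have 1 basic residue in the membrane segment, while Cd300ld has 1 acidic residue. The coding sequence around the ITIM tyrosines is shown first, because it is what makes Cd300a and Cd300lf the inhibitory side of the comparison. The capitals mark the tyrosine codon, and each stretch lies within 1 coding exon.
Cd300a motif 1, chr11:114899846-114899863, plus strand: gtggaaTATagcacattg
Cd300a motif 2, chr11:114901147-114901164, plus strand: cttcacTATtcatccgtg
Cd300lf motif 1, chr11:115117648-115117665, minus strand: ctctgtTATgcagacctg
Cd300lf motif 2, chr11:115117112-115117129, minus strand: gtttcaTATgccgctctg

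The codon for the charged membrane residue of each activating member, in capitals, is shown with its flanks for the contrast with the inhibitory genes. It is the same lysine codon in Cd300c, Cd300c2, Cd300e and Cd300lb, and a glutamate codon in Cd300ld.
Cd300c, chr11:114956368-114956394, minus strand: ctggtgtctctgAAGttgcccctgttc
Cd300c2, chr11:114996978-114997004, minus strand: ctggtgtctctgAAGttgttcctgttc
Cd300e, chr11:115053303-115053329, minus strand: ctggtcttcctgAAGctgcctctgttt
Cd300lb, chr11:114925019-114925045, minus strand: ctggtatttgtgAAGgtgcctgccttg
Cd300ld, chr11:114984240-114984266, minus strand: atggtctttgtgGAGttacccctgctc

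Some members resemble a member of the other kind more than their own. The translation of Cd300a is 60.1% identical to that of Cd300c2 and 36.9% identical to that of Cd300lf, while Cd300lf is 58.9% identical to Cd300ld. The closest pair among the members is Cd300c and Cd300c2, at 72.4%. Exact matches of read length between these genes were few, and matches with mismatched bases were not counted. Of the windows of 75 bases (the read length) in transcripts of Cd300a, 1.37% also occur in Cd300c2. Of those in Cd300lf, 1.12% also occur in Cd300ld, and Cd300c, Cd300e and Cd300lb share no window with another Cd300 gene. Conversely, 5.19% of the windows of Cd300c2 occur in Cd300a and 2.33% of those of Cd300ld in Cd300lf.

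Total counts lay between 35334645 and 40580936 in the PBS libraries and between 38240913 and 43341834 in the WGP libraries. The 7 members together took 0.0554% to 0.0649% of the counts in PBS and 0.0820% to 0.112% in WGP. A pair of features of the libraries accompanies all values given here. PBS 2 and PBS 3 held at least 8972 counts over 4 Y-linked genes, while PBS 1 and the 3 WGP libraries held at most 1, so the presence of Y-linked counts is unevenly spread over the groups. PBS 1 also stood apart in its cell type markers, with the lowest summed level of 12 resident macrophage markers of all PBS libraries (9253 CPM, against 15888 and 19275 CPM) and the highest of 10 neutrophil markers (6429 CPM, against 3714 and 2404 CPM). For the Cd300 genes and the other genes named with a fold change, a call or a passed test that was lost without PBS 1, or in the 4 libraries without Y-linked counts, is given beside the result, and marker lists are given with their counts of calls. Levels are given as CPM, the counts of a gene relative to the library's total, after TMM scaling, which corrects the totals for differences in composition.

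To determine whether the family changed with WGP treatment, edgeR's quasi-likelihood test was run on all 14429 protein-coding genes that passed the filter on low counts. Calls needed a p of 0.05 or less after Benjamini-Hochberg adjustment and a change of 2-fold or more, that is a log2 fold change of at least 1 in size. Of the 7 members 2 were called higher in WGP, the inhibitory Cd300lf and the activating Cd300c2, where 4.53% of all genes tested were called higher. None of the 7 was called lower by edgeR, where 4.96% of all genes were called lower and 9.49% were called in either direction. At the unadjusted p, 5 members were under 0.05 (Cd300a, Cd300lf, Cd300c2, Cd300lb and Cd300e), where 26% of all genes tested were, and DESeq2 called Cd300e lower. In 4 of the 7 members the values of the groups did not overlap (Cd300a, Cd300lf and Cd300c2 higher, Cd300e lower), against 32% of all genes tested. With 3 libraries in each group the smallest two-sided p of an exact permutation test is 0.1, and these 4 genes each stood at that value. All 7 members passed the filter on low counts, but Cd300c did so only through its counts in PBS.

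Cd300lf, which encodes an inhibitory receptor (CD300f, CLM-1) for phosphatidylserine and ceramide, had the largest called change of the members. The gene (ENSMUSG00000047798) lies at chr11:115116214-115133992 on the minus strand. Its level was 117, 62.1 and 46.3 CPM in PBS 1, 2 and 3, and 296, 254 and 312 CPM in WGP 1, 2 and 3. Every WGP library was more than 2-fold above every PBS library, and PBS 1 was the highest of the control libraries. The group mean rose from 75.004 ± 36.8 CPM to 287 ± 30.1 CPM (SD, n = 3). This was a log2 fold change of 1.94 ± 0.30 (standard error), with a 95% interval from 1.28 to 2.595 and an adjusted p of 0.00155. It was called under all 17 alternative analyses, with a log2 fold change of 2.40 without PBS 1. The lowest value, 1.30, came both when Y-linked counts entered the fit as a covariate and in the 4 libraries without such counts (adjusted p = 0.0113), where the control side rests on PBS 1 alone and is assumed to vary like the WGP group.

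Cd300a, the other inhibitory member, encodes a receptor for phosphatidylserine and phosphatidylethanolamine, and lies at the other end of the cluster (ENSMUSG00000034652, chr11:114890041-114904654, plus strand). Its level was 116, 173 and 179 CPM in PBS 1, 2 and 3, and 294, 196 and 279 CPM in WGP 1, 2 and 3. The groups did not overlap, but WGP 2 was close to the highest PBS library. The mean was 156 ± 35.02 CPM in PBS and 256 ± 52.5 CPM in WGP (n = 3), and the log2 fold change of 0.72 ± 0.21 (standard error, 95% interval 0.25 to 1.19) passed the adjusted p (0.0471) but not the fold threshold. The adjusted p held in 8 of 17 alternatives. It was lost when PBS 1, PBS 2, PBS 3, WGP 1 or WGP 3 was left out, with a highest value of 0.166 without WGP 1, and its lowest log2 fold change was 0.54 without PBS 1. Cd300a was called higher, at 1.15, in the 4 libraries without Y-linked counts (adjusted p = 0.0426) and with those counts as a covariate (adjusted p = 0.0153).

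The difference between the inhibitory genes lay mainly in the control libraries. The log2 ratio of Cd300lf to Cd300a, in CPM, was 0.01, -1.48 and -1.95 in PBS 1, 2 and 3, and 0.01, 0.37 and 0.16 in WGP 1, 2 and 3. PBS 1 thus had a ratio like that of the WGP libraries, and the groups overlapped for this ratio. Whether the changes of the genes differ from each other was not tested.

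Among the activating members, Cd300c2 was the only gene called by edgeR. Cd300c2 (also CLM-4) encodes an activating receptor that pairs with adaptor proteins (ENSMUSG00000044811, chr11:114996721-115001880, minus strand). Its level was 55.5, 73.1 and 78.9 CPM in PBS 1, 2 and 3, and 168, 151 and 177 CPM in WGP 1, 2 and 3. The spread within each group was small beside the gap between them. The group mean rose from 69.2 ± 12.2 CPM to 165 ± 13.2 CPM (n = 3), which is 1.26 ± 0.17 on the log2 scale (standard error, 95% interval 0.88 to 1.63), with an adjusted p of 0.000688. It was called under all 17 alternatives, with log2 fold changes between 1.12 without PBS 1 and 1.58 in the 4 libraries without Y-linked counts.

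Cd300lb, whose product (CD300b, CLM-7) pairs with DAP12 and takes part in the uptake of dying cells, did not pass the test (ENSMUSG00000063193, chr11:114922781-114934386, minus strand). Its level was 65.7, 97.9 and 74.9 CPM in PBS 1, 2 and 3, and 159, 83.3 and 135 CPM in WGP 1, 2 and 3. WGP 1 and WGP 3 were above all PBS libraries, while WGP 2 was below PBS 2. The means were 79.5 ± 16.6 and 126 ± 38.7 CPM (n = 3), and the log2 fold change was 0.66 ± 0.24 (standard error, 95% interval 0.12 to 1.20; adjusted p = 0.105). Without WGP 2 the adjusted p was 0.0171, and no alternative brought the gene past both thresholds.

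Cd300ld (CLM-5), which had the highest level per length of all members in the PBS libraries, encodes an activating receptor with the acidic membrane residue shown above (ENSMUSG00000034641, chr11:114982274-114989922, minus strand). Its level was 143, 221 and 232 CPM in PBS 1, 2 and 3, and 243, 168 and 181 CPM in WGP 1, 2 and 3. Each group had 1 library that stood away from the other 2, PBS 1 on the low side and WGP 1 on the high side, and the groups overlapped. The means were 199 ± 48.4 and 198 ± 40.3 CPM (n = 3), a difference of -0.01 ± 0.21 on the log2 scale (standard error, adjusted p = 0.986). The 95% interval, -0.48 to 0.46, leaves room for changes of moderate size in either direction but lies inside the 2-fold threshold.

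Cd300e (CLM-2), which signals through DAP12 and is known from mature monocytes, had lower values in the WGP libraries (ENSMUSG00000048498, chr11:115051917-115062177, minus strand). Its level was 11.1, 11.6 and 7.31 CPM in PBS 1, 2 and 3, and 4.12, 4.70 and 2.69 CPM in WGP 1, 2 and 3. All WGP libraries were below all PBS libraries. The means were 10.01 ± 2.35 and 3.84 ± 1.04 CPM (n = 3), and the log2 fold change was -1.38 ± 0.47 (standard error, 95% interval -2.43 to -0.34). The adjusted p of 0.0823 missed the threshold in edgeR, and DESeq2 called the gene lower with an adjusted p of 0.0319. Over the alternatives in edgeR and limma the gene was not called, and its log2 fold change lay between -1.56 and -1.18. The highest adjusted p, 0.258, came without PBS 2.

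Cd300c (CLM-6) was barely detected (ENSMUSG00000058728, chr11:114956116-114969157, minus strand). It had 39, 19 and 0 counts in PBS 1, 2 and 3, and 0 counts in every WGP library. PBS 3 was thus no different from the WGP libraries. Taken over the groups, 58 counts in PBS against a floor of 3 counts over the WGP group give a pooled ratio of 19.5-fold. This ratio covers counting error in WGP only. It is drawn from the group through which the gene passed the filter, so it is not read as a change. It rests mainly on PBS 1 and was 9.45-fold without that library. The test did not pass (adjusted p = 0.303), and the 95% interval of the log2 fold change, -16.5 to 1.85, includes no change.

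**Figure D1:**
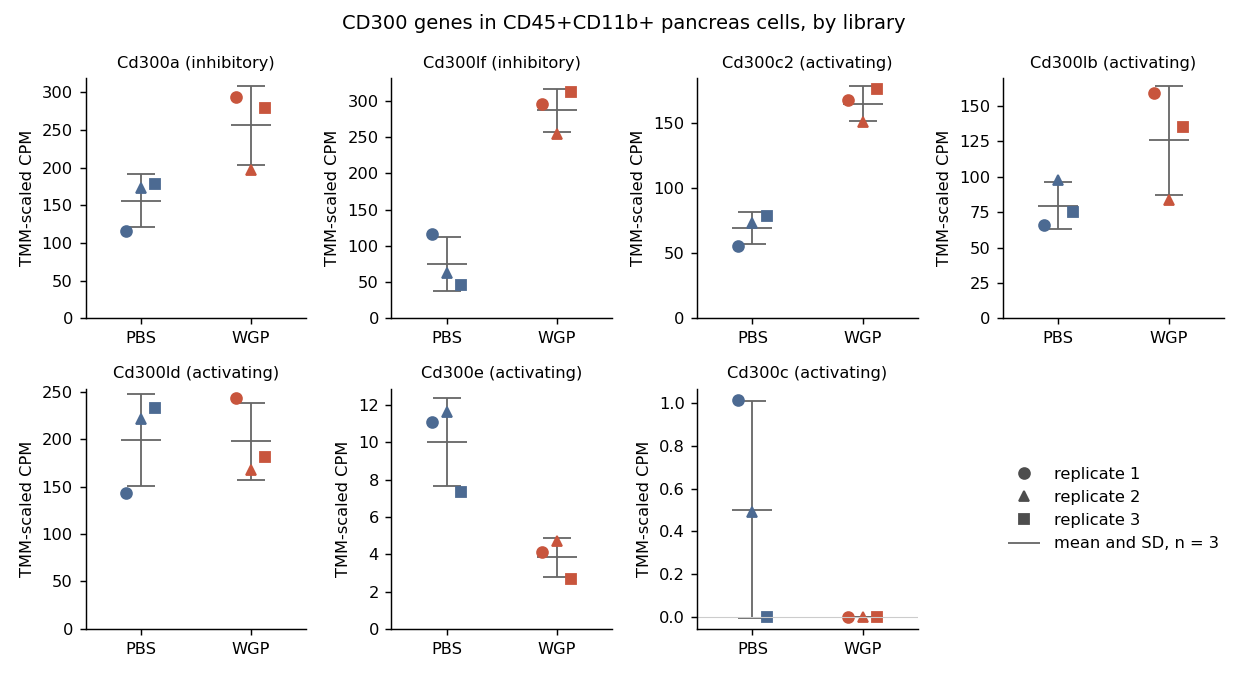
Level of each CD300 member (TMM-scaled CPM, linear axes that differ between panels) in the 3 PBS and the 3 WGP libraries, with points for libraries, shapes for replicate numbers, and lines for the mean and SD. Cd300lf and Cd300c2 have all WGP libraries far above all PBS libraries (254 to 312 against 46.3 to 117 CPM, and 151 to 177 against 55.5 to 78.9 CPM), while the groups overlap for Cd300lb, Cd300ld and Cd300c.

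To compare the members with each other, levels were divided by the length of the exons of each gene, since a longer transcript gives more reads at the same number of molecules. In PBS the order per kilobase (kb) of exon was Cd300ld (75.2 ± 18.3 CPM per kb, SD, n = 3), Cd300c2 (54.3 ± 9.57), Cd300a (32.9 ± 7.39), Cd300lb (27.3 ± 5.68), Cd300lf (14.6 ± 7.15), Cd300e (4.79 ± 1.13) and Cd300c (0.470 ± 0.476). Here Cd300a was above Cd300lb in each PBS library, narrowly so in PBS 1 (24.4 against 22.5 CPM per kb), and Cd300lb and Cd300lf were level in PBS 1. In WGP, Cd300c2 was first (130 ± 10.4 CPM per kb), followed by Cd300ld (74.7 ± 15.2), Cd300lf (55.8 ± 5.84), Cd300a (54.1 ± 11.1), Cd300lb (43.1 ± 13.3) and Cd300e (1.84 ± 0.497). Within each WGP library Cd300lf and Cd300a were above Cd300lb, while Cd300lf was below Cd300a in WGP 1 and above it in WGP 2 and WGP 3. Cd300lf was thus below Cd300a in the PBS libraries, narrowly so in PBS 1, and level with it in WGP per kb of exon.

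The order depends on the length that is used. With the length of the coding sequence alone, Cd300ld had the highest mean in both groups, at 300.1 ± 73.0 CPM per kb in PBS and 298 ± 60.8 CPM per kb in WGP. In WGP 3, however, Cd300lf (307 CPM per kb) and Cd300a (293) were above Cd300ld (273). Cd300c2 then stood at 89.6 ± 15.8 and 214 ± 17.1 CPM per kb and was below Cd300ld, Cd300lf and Cd300a in every WGP library. Cd300lf stood at 73.7 ± 36.2 and 282 ± 29.6 CPM per kb on that scale. Its mean was below that of Cd300c2 in PBS, though not its value in PBS 1, and it was above Cd300c2 in every WGP library. With the longest transcript of each gene Cd300lf was at 73.1 ± 7.66 CPM per kb in WGP, above Cd300a (55.2 ± 11.3) in each WGP library, and also above it in PBS 1.

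The make-up of the family followed from the levels per kb of exon. Cd300ld held 31.3%, 36.5% and 38.9% of the summed level per kb of the 7 members in PBS 1, 2 and 3, and 23.0%, 20.9% and 18.3% in WGP 1, 2 and 3. Cd300c2 held 25.1%, 25.0% and 27.4% in PBS and 33.0%, 39.0% and 37.0% in WGP. For both genes the groups did not overlap, with Cd300ld smaller and Cd300c2 larger in WGP. The share of Cd300lf was 13.04%, 5.27% and 3.99% in PBS and 14.4%, 16.3% and 16.2% in WGP, whereas that of Cd300a stayed between 13.7% and 16.7% in all 6 libraries. A share depends on all members, so the smaller share of Cd300ld came with a like mean level of the gene and a larger sum.

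**Figure D2:**
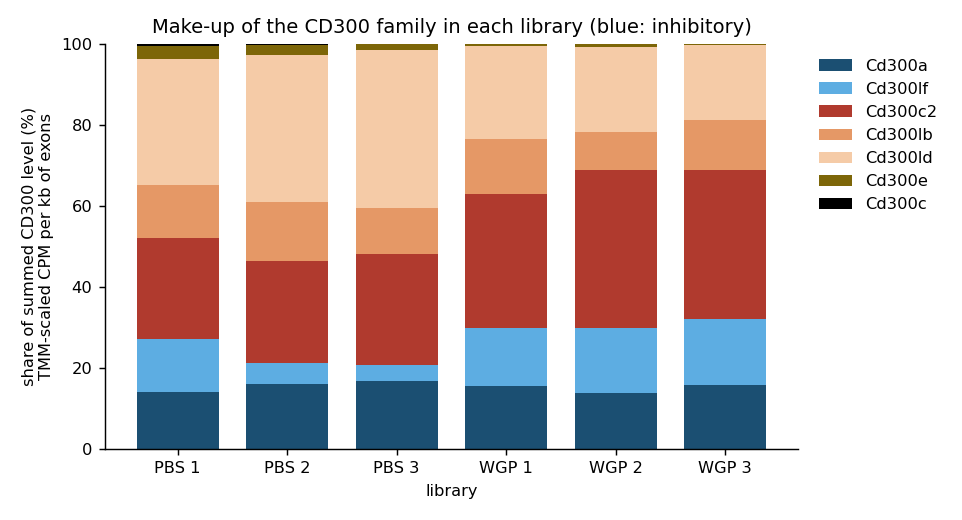
Share of each member in the summed level of the CD300 family (percent of TMM-scaled CPM per kb of exons) in each library, stacked, with the inhibitory members in blue. Cd300c2 takes 33.0% to 39.0% in WGP against 25.0% to 27.4% in PBS, and Cd300ld takes 18.3% to 23.0% against 31.3% to 38.9%.

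The inhibitory and the activating side were then compared as sums. The inhibitory sum was 47.0, 48.7 and 46.7 CPM per kb in PBS 1, 2 and 3, and 119, 90.7 and 120 CPM per kb in WGP 1, 2 and 3. The activating sum was 127, 180 and 179 CPM per kb in PBS and 280, 212 and 255 CPM per kb in WGP. Per kb of exon, both sums were higher in all WGP libraries than in all PBS libraries. The activating sum was above the inhibitory one in every library on that scale. In CPM without division by length, the inhibitory sum was 232, 236 and 225 in PBS 1, 2 and 3, and 589, 450 and 592 in WGP 1, 2 and 3. The activating sum was then 277, 404 and 394 CPM in PBS and 575, 406 and 496 CPM in WGP. Here the inhibitory sum was below the activating one in PBS and above it in WGP. The activating sum of WGP 2 was barely above that of PBS 2. The ratio of the inhibitory to the activating sum per kb of exon was 0.372, 0.270 and 0.261 in PBS (mean 0.301 ± 0.0615) and 0.426, 0.427 and 0.470 in WGP (mean 0.441 ± 0.0249). On the log2 scale the mean ratio was higher by 0.57 in WGP, where the SD within groups was 0.21. The difference was 0.73 without PBS 1 and 0.24 in the 4 libraries without Y-linked counts, where PBS 1 is the control. As a score over chosen members it was not tested.

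The shift of the ratio rested on single genes. Without Cd300lf the log2 difference was 0.09, and without Cd300ld it was 0.19, whereas without Cd300a it was 1.41 and without Cd300c2 1.05. With the length of the coding sequence in place of all exons the difference was 0.78. Activating genes were thus found on all sides of the comparison, with Cd300c2 called higher, Cd300ld at the same mean level and Cd300e lower without an edgeR call. The PBS library without Y-linked counts, PBS 1, had the control ratio nearest to that of the WGP libraries (0.372), and the part of that difference between the control libraries in the shift was not tested.

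**Figure D3:**
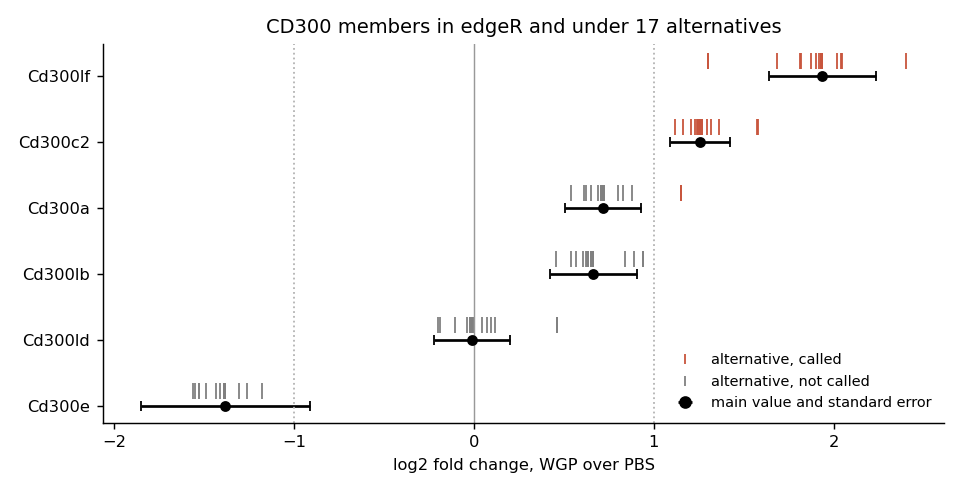
Log2 fold change (WGP over PBS) of 6 members in edgeR, with black points for the main value and bars for its standard error, and ticks for the 17 alternative analyses, red where the gene was called. Ticks of Cd300lf (1.30 to 2.40) and Cd300c2 (1.12 to 1.58) are all red and beyond the dotted threshold of 1, and those of Cd300ld fall on both sides of 0.

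Of the 5 remaining Cd300 symbols of the table, none was called higher and 1 was called lower. Cd300ld3 (ENSMUSG00000069607), a close relative of Cd300ld, had 18.9, 40.8 and 41.0 CPM in PBS 1, 2 and 3, and 15.3, 10.3 and 17.4 CPM in WGP 1, 2 and 3. All WGP libraries were below all PBS libraries, PBS 1 by little. The mean was 33.5 ± 12.7 CPM in PBS and fell to 14.3 ± 3.66 CPM in WGP (n = 3), with a change of -1.23 ± 0.34 on the log2 scale (standard error, adjusted p = 0.0352). The call held in 8 of 17 alternatives. It was lost when PBS 2, PBS 3, WGP 1, WGP 2 or WGP 3 was left out, with adjusted p values up to 0.141 (without PBS 2), and in the 4 libraries without Y-linked counts, where the log2 fold change was -0.39 (adjusted p = 0.634). In addition, 81.5% of the read-length windows of Cd300ld3 occur in Cd300ld2, Cd300ld4 or Cd300ld5, so the division of reads among these genes is uncertain. Cd300ld2 was at 3.87 ± 1.05 and 1.71 ± 0.543 CPM in PBS and WGP, Cd300ld4 at 1.19 ± 0.794 and 0.945 ± 1.31 CPM, and Cd300ld5 had no counts in any library, with neither Cd300ld2 (adjusted p = 0.407) nor Cd300ld4 (adjusted p = 0.937) called. The log2 fold change of Cd300ld4 was 0.33 without PBS 3. Cd300lg, which encodes a CD300-related protein of endothelium, lies outside the cluster at chr11:102041509-102055620 and was at 24.5 ± 8.29 and 20.4 ± 6.63 CPM (n = 3, log2 fold change -0.26, adjusted p = 0.670), with a log2 fold change of 0.38 in the 4 libraries without Y-linked counts.

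The neighbourhood of the cluster was examined to see whether nearby genes changed as well. Within 250 kb of the outermost members, 18 protein-coding genes without a Cd300 symbol were listed and 14 were tested. None was called higher and 1 was called lower, and their median log2 fold change was -0.04, beside -0.05 over all genes tested. The gene called lower was Gprc5c, a G protein-coupled receptor gene just before Cd300a, which fell from 62.3 ± 30.3 to 4.53 ± 0.912 CPM (n = 3, log2 fold change -3.78, adjusted p = 0.000169), with a log2 fold change of -2.67 in the 4 libraries without Y-linked counts. Rab37, which encodes a small GTPase of secretory granules, overlaps the span of Cd300lf on the opposite strand, and no exon of Rab37 lies in that span. It had 9.86, 0.719 and 1.88 CPM in PBS and 1.66, 2.70 and 1.05 CPM in WGP, and was not called (log2 fold change -1.20, adjusted p = 0.504). Slc9a3r1 on the other side of Cd300lf was at 118 ± 14.2 and 154 ± 6.78 CPM (adjusted p = 0.119).

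**Figure D4:**
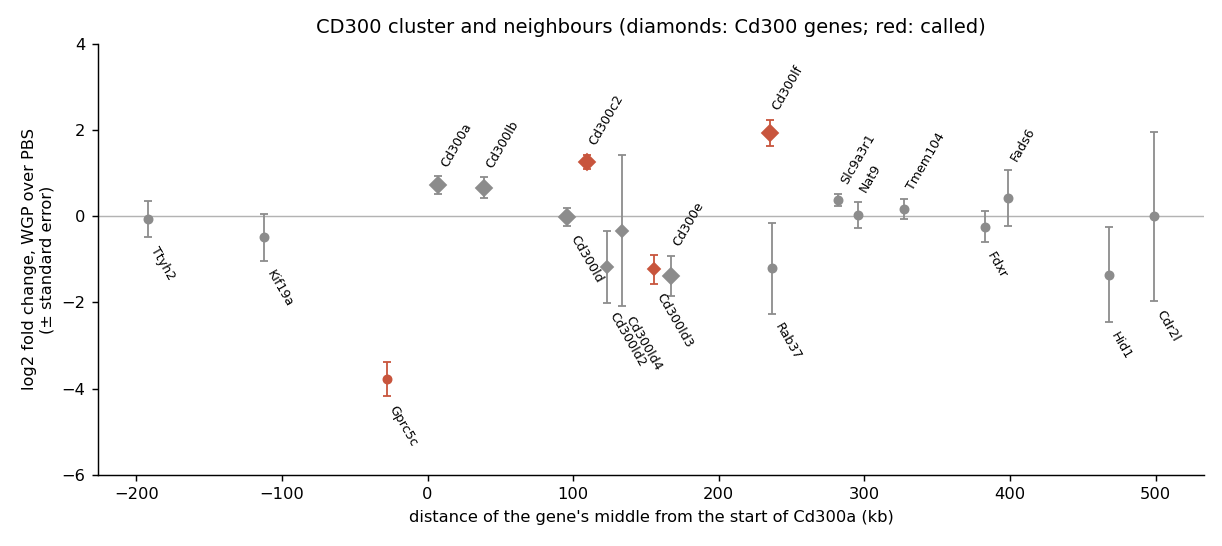
Log2 fold change (WGP over PBS, bars for the standard error) of the Cd300 genes (diamonds) and their tested neighbours (circles) against the distance of each gene's middle from the start of Cd300a in kb, with called genes in red. Cd300c and the neighbours Dnaic2, Btbd17 and Gpr142, all at very low levels, are not drawn. Cd300c2 (1.26) and Cd300lf (1.94) were called higher, Cd300ld3 (-1.23), which lies between them, and the neighbour Gprc5c (-3.78) were called lower, and the other genes drawn were not called.

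Since Cd300lf, Cd300c2 and Cd300a passed the adjusted p together, the 250 bases before their transcription starts are shown from the RefSeq table of GRCm38.p6, which held all 7 members. Capitals mark matches, on either strand, to the 6-base core of the PU.1 motif (GAGGAA, or TTCCTC on the other strand) and, in Cd300a only, to the C/EBP motif TTGCNNAA. PU.1 and C/EBP are transcription factors of the myeloid lineage.
Cd300lf, chr11:115133993-115134242, minus strand: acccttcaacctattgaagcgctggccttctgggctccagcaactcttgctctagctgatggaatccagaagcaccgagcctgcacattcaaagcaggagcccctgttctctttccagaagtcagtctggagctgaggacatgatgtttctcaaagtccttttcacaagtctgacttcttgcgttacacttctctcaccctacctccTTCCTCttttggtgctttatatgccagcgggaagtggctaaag
Cd300c2, chr11:115001881-115002130, minus strand: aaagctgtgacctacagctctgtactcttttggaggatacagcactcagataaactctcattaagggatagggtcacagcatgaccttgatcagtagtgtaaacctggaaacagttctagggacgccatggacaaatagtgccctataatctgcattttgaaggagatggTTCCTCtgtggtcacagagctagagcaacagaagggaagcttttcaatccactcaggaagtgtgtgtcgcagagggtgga
Cd300a, chr11:114889791-114890040, plus strand: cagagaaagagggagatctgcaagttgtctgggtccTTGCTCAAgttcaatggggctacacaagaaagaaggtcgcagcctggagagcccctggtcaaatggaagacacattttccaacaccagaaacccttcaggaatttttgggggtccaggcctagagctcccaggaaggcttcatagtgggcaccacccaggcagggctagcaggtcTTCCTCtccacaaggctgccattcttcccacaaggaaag

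The PU.1 core began 43 bases before the start of Cd300lf, 80 bases before that of Cd300c2 and 39 bases before that of Cd300a. It also occurred 143 bases before the start of Cd300ld, which did not pass the test, and 187 bases before those of Cd300ld3, called lower, and of Cd300ld4 and Cd300ld5. It was not found in the windows of Cd300c, Cd300e or Cd300lb, so genes with the core were found among those that rose, fell and did not pass. Of 32851 promoter windows of the same length, 23.2% held it. Cd300e held a match to the STAT motif GAS (TTCNNNGAA, in 7.02% of windows) and Cd300c held a match to the interferon motif ISRE (in 2.98% of windows), while C/EBP motifs stood in 9.56% of windows. The AP-1 motif TGANTCA (6.75% of windows) and the NF-kB motif (0.356%) were in none of the members' windows. These matches describe the letters of the windows only.

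The adaptors through which the activating receptors signal were then examined. Tyrobp, the gene of DAP12, had 611 ± 80.6 CPM in PBS and 881 ± 57.3 CPM in WGP (n = 3), a difference of 0.53 ± 0.15 on the log2 scale (standard error, adjusted p = 0.0435). Fcer1g, the gene of the Fc receptor γ chain, had 708 ± 92.7 and 1067 ± 48.2 CPM (log2 fold change 0.59, standard error 0.15, adjusted p = 0.0250). Both thus rose at the adjusted p and stayed below the fold threshold. The adjusted p of Tyrobp was lost when any single library was left out (0.0527 without PBS 1 and up to 0.157 without WGP 3), and that of Fcer1g without PBS 2, WGP 1 or WGP 3 (up to 0.10005). Hcst, the gene of DAP10, was at 7.92 ± 1.65 and 10.5 ± 2.20 CPM and did not pass (adjusted p = 0.528). In all 6 libraries Tyrobp and Fcer1g had CPM well above those of any CD300 member.

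Of 12 kinases and effectors below these adaptors, 7 rose at the adjusted p and none fell at it (median log2 fold change 0.52), where 7.54% of all genes tested rose and 6.81% fell at the adjusted p. The count of 7 was 8 without PBS 1, 3 without PBS 2, PBS 3, WGP 1 or WGP 3, with library totals alone and with Y-linked counts as a covariate, and 2 in the 4 libraries without Y-linked counts. With upper-quartile scaling, library totals alone, filterByExpr or DESeq2, 1 of the 12 fell at the adjusted p. Fgr, which encodes a Src-family kinase, had the smallest p of the list and was called. It rose from 171 ± 21.7 to 603 ± 61.0 CPM (n = 3, log2 fold change 1.82, adjusted p = 5.44e-05). Among the phosphatases that the inhibitory tails recruit, Ptpn6, the gene of SHP-1, rose at the adjusted p from 477 ± 54.6 to 798 ± 64.0 CPM (log2 fold change 0.74, standard error 0.15, adjusted p = 0.00777). It no longer passed in the 4 libraries without Y-linked counts (adjusted p = 0.0661) or with those counts as a covariate (adjusted p = 0.0510). Ptpn11, the gene of SHP-2, was at 112 ± 7.28 and 121 ± 5.28 CPM (log2 fold change 0.12, adjusted p = 0.638), and Inpp5d, the gene of SHIP-1, at 433 ± 48.8 and 386 ± 29.0 CPM (log2 fold change -0.17, adjusted p = 0.508).

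Of 5 genes of proteins that have been described as partners of CD300 receptors, 3 rose and 1 fell at the adjusted p, of which only the one that fell was called. Timd4, which encodes a phosphatidylserine receptor reported to bind CD300b, was at 239 ± 94.1 CPM in PBS and fell to 20.4 ± 8.70 CPM in WGP (n = 3), a change of -3.55 ± 0.37 on the log2 scale (standard error, adjusted p = 0.000165) and of -2.68 in the 4 libraries without Y-linked counts. Timd4 is also among the 12 resident macrophage markers. The genes of the endotoxin receptor complex, with which CD300b associates, rose at the adjusted p without being called, with log2 fold changes of 0.70 for Tlr4 (adjusted p = 0.0298) and 0.72 for Cd14 (adjusted p = 0.0223). The adjusted p of Tlr4 was lost without PBS 1, PBS 2, WGP 2 or WGP 3 (up to 0.0967) and that of Cd14 without PBS 2 or WGP 1 (up to 0.0959), while in the 4 libraries without Y-linked counts both were called, at 1.07 and 1.04. Il4ra, whose product binds CD300f, was at 247 ± 36.2 CPM in PBS and 393 ± 69.1 CPM in WGP (log2 fold change 0.67, adjusted p = 0.0272), and did not pass without PBS 1, PBS 3, WGP 1 or WGP 2 (up to 0.0855) or in the 4 libraries without Y-linked counts (0.0668). Havcr1, the gene of TIM-1, was at 0 CPM in PBS and 0.145 ± 0.251 CPM in WGP.

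**Figure D5:**
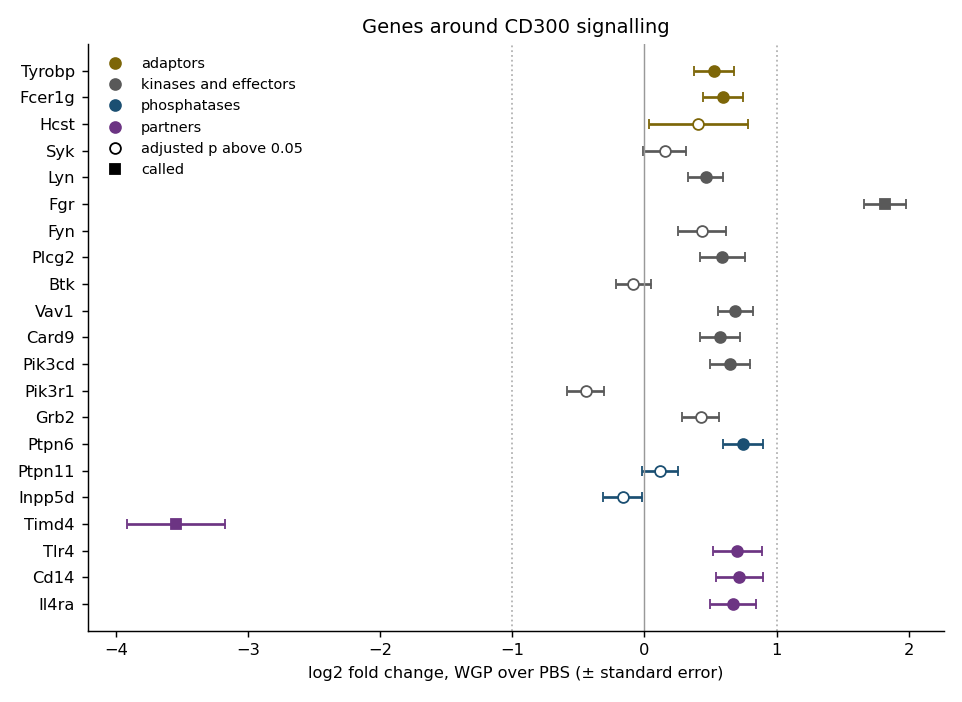
Log2 fold change (WGP over PBS, bars for the standard error) of the adaptors, kinases and effectors, phosphatases and partners of CD300 receptors, with open symbols above an adjusted p of 0.05 and squares for called genes. Havcr1, near 0 CPM, and 1 kinase gene are not drawn. Fgr (1.82) and Timd4 (-3.55) are the called genes drawn, and most of the others lie between 0 and 1.

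Other families of paired myeloid receptors were taken for comparison. Of 9 inhibitory genes, 4 were called higher and none lower, with a median log2 fold change of 0.69, and of 10 activating genes tested, 3 were called higher and 1 lower, with a median of 0.97. The median over all genes tested was -0.05. On the activating side 5 were called higher without PBS 1, and 5 higher and none lower in the 4 libraries without Y-linked counts. The calls with the smallest p on the inhibitory side were Pilra (log2 fold change 1.84, adjusted p = 0.000272), Clec12a (1.14, adjusted p = 0.000356) and Pirb (1.54, adjusted p = 0.000550). On the activating side they were Clec5a (1.84, adjusted p = 2.84e-05), Treml4 (1.39, adjusted p = 0.00244) and Siglech, which was lower in WGP (28.2 ± 10.2 against 1.75 ± 1.25 CPM, adjusted p = 0.000827). The log2 fold change of Siglech was -3.32 in the 4 libraries without Y-linked counts, where it was not called. Siglech is also a marker of plasmacytoid dendritic cells and Treml4 of nonclassical monocytes. Called genes were therefore found on the inhibitory and on the activating side in these families, as they were in the CD300 family.

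The genes whose pattern over the 6 libraries was most like that of the called members were found by Pearson's correlation of log2 CPM. For Cd300lf these were H2-Q7 (r = 0.999), a class I histocompatibility gene with close paralogs, Relb (r = 0.999), a subunit of the NF-kB family, and Gm5150 (r = 0.998). For Cd300c2 they were Pirb (r = 0.998), itself an inhibitory paired receptor, Irak3 (r = 0.997), an inhibitor of Toll-like receptor signalling, and Ccr2 (r = 0.997), the chemokine receptor of inflammatory monocytes. All 6 genes were called higher, with log2 fold changes between 1.05 for Relb and 1.98 for Ccr2. In the 4 libraries without Y-linked counts Relb (0.70, adjusted p = 0.0729) and Gm5150 (1.19, adjusted p = 0.0747) were not called, nor were they with those counts as a covariate, and Relb was below the fold threshold without PBS 3 (0.90). With 6 libraries in groups that differ, high correlations are common, and 272 genes exceeded 0.95 with Cd300lf and 449 with Cd300c2.

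Cell type markers moved with the groups. Neither of the 2 genes that define the gate, Ptprc and Itgam, was called, though both rose at the adjusted p. Their summed level was 1203 to 1231 CPM in PBS and 1925 to 2135 CPM in WGP. The 12 resident macrophage markers summed to between 9253 and 19275 CPM in PBS and between 3522 and 5699 CPM in WGP, with 9 called lower (9 without PBS 1, and 6 in the 4 libraries without Y-linked counts). The 8 markers of Ly6C-high monocytes summed to between 2995 and 6466 CPM in PBS and between 6533 and 8195 CPM in WGP, with 4 called higher and 1 lower. Of the 8 markers of nonclassical monocytes, on which Cd300e is known, 2 were called higher and 3 lower. The count called lower was 5 without WGP 1 and 2 without PBS 2, WGP 2 or WGP 3, and 1 was called higher without PBS 3. Their sums were 3171 to 3550 CPM in PBS and 1758 to 2520 CPM in WGP. These changes ran beside those of the CD300 genes, and their part in them was not tested. In bulk samples fewer cells of a type and less RNA per cell cannot be told apart.

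Markers of other CD300-bearing cells gave less uniform values. The 10 neutrophil markers summed to between 2404 and 6429 CPM in PBS, highest in PBS 1, and between 2673 and 2816 CPM in WGP, with 1 called higher and 1 lower. In the 4 libraries without Y-linked counts, where PBS 1 is the control, 6 neutrophil markers were called lower and none higher, and without PBS 3, 5 were called lower. The 8 mast cell and basophil markers summed to 12.4 to 30.1 CPM in PBS and 32.7 to 48.5 CPM in WGP. Cpa3 and Mcpt4, which define mast cells, had no counts, while Kit, a growth factor receptor gene that progenitor cells also express, was called higher (11.96 ± 4.23 against 39.6 ± 7.25 CPM, log2 fold change 1.72, adjusted p = 0.00316) and made up most of the sum in WGP. The other 5 genes tested had fold changes below 0 and were not called, with Tpsb2, Fcer1a, Ms4a2 and Mcpt8 at 0 counts in every WGP library and Mcpt8 at 10.3 CPM in PBS 1. With Y-linked counts as a covariate no gene of that list was called higher and 1 was called lower, and 1 was called lower in the 4 libraries without Y-linked counts and without PBS 3. Conventional dendritic cell markers (8 genes, 1 called lower) summed to 266 to 268 CPM in PBS and 116 to 218 CPM in WGP, and plasmacytoid dendritic cell markers (7 genes, 3 called lower) to 469 to 671 and 223 to 238 CPM. Markers of B cells and of acinar cells, the enzyme-secreting cells of the pancreas, were higher in PBS. The 5 B cell markers, all called lower, summed to 361 to 2414 CPM in PBS, highest in PBS 1, and 86.8 to 169 CPM in WGP, and the 8 acinar cell markers, 7 of them called lower, to 1080 to 4572 and 298 to 538 CPM. Eosinophil, T cell, NK cell and endothelial markers summed to between 11.5 and 198 CPM in all libraries, with NK cell and endothelial markers highest in PBS 1. Eosinophil markers were highest in WGP 1 (180 CPM, against 55.4 and 63.8 CPM in WGP 2 and 3, and 83.9 to 122 CPM in PBS). Over these lists, 1 eosinophil, 1 T cell and 1 endothelial marker were called higher, and 1 eosinophil and 1 NK cell marker lower. The part of these cells in the levels of the CD300 genes was not tested.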

How the data were processed

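Total RNA (10 ng per library) of sorted cells was made into poly-A libraries. The authors aligned the single-end reads to mm10 (GRCm38.p6) with STAR 2.6 and counted them per Ensembl gene with HTSeq 0.10.0, and the deposited values are raw counts, 1 column per library. The annotation release, the strand setting and the treatment of duplicate and multiply mapped reads are not given in the sources used here. Groups follow the labels, and the libraries are described as 1 animal each from 1 experiment, so p-values measure the spread between these animals. Counts of replicates differed by far more than sampling noise (chi-square per degree of freedom 64.3 to 263).

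Counts were analysed with edgeR 4.0.16 in R 4.3.3 (TMM scaling, glmQLFit, glmQLFTest), checked on simulated counts, over the 14429 genes that were protein-coding and whose RLE-normalized counts summed to 10 or more. DESeq2 1.42.0, limma 3.58.1, other scalings and filters, a replicate block, a Y-linked covariate and leaving out each library were alternatives, and the analysis of the libraries without Y-linked counts was added after the data were seen. Standard errors were taken as the log2 fold change divided by the square root of the F statistic. Lengths are the union of GENCODE vM21 exons. Correlations used a prior count of 2. Membrane segments were placed at the most hydrophobic 21 residues (Kyte-Doolittle), and ITIM-like motifs were a tyrosine preceded at the second position before it by isoleucine, valine, leucine or serine and followed at the third position after it by a leucine, isoleucine or valine. The 95% intervals come from the edgeR fit and include the spread between libraries, while the floor used for Cd300c covers counting error in WGP only. Genes named beyond the members were the other Cd300 symbols, adaptors, phosphatases, partners, neighbours, the called genes of the other lists with the smallest p (at most 3) and the 3 genes most like each called member. Values of 1 gene on the kinase list are not reported here. The members and lists were chosen with earlier results of these data known.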

Additional observations from a re-analysis of the deposited data

How the results depend on the processing

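Of 118 values of the 7 members under up to 17 alternatives, 109 kept their direction and call, as did 497 of 525 values of 31 other named genes. Cd300lf and Cd300c2 were called under every alternative run. Between 2 and 3 members were called higher and none lower, except under DESeq2, which called 1 lower (Cd300e). Leaving out each library in turn gave 1146 to 1396 genes called, 589 to 678 of them higher and 554 to 783 lower. With no fold threshold the count was 2071 genes, 1088 of them higher. Library totals without TMM scaling shifted the median of all genes by -0.10. Uncalled values changed sign as follows, and the cause was not tested: Cd300ld with a Y-linked covariate (0.46), in the libraries without Y-linked counts (0.46), and without PBS 2 (0.07), PBS 3 (0.12), WGP 2 (0.10) or WGP 3 (0.05), against a lowest value of -0.20 without PBS 1, Cd300lg with the covariate (0.38) and in those libraries (0.38), Inpp5d likewise (0.019 and 0.022), Cd300ld4 without PBS 3 (0.33), WGP 1 (0.22) or WGP 2 (0.06), against a lowest of -2.58 without WGP 3, and Rab37 without PBS 1 (0.47), against -1.70 without PBS 2 and a lowest of -2.45 with the covariate. The log2 difference of the inhibitory to activating ratio was 0.78 with coding lengths, 0.24 in the libraries without Y-linked counts, and 1.41, 0.092, 1.05 and 0.19 without Cd300a, Cd300lf, Cd300c2 and Cd300ld.

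Same-numbered libraries shared no visible deviation, with correlations of their deviations of 0.003, -0.04 and 0.01. The labels do not say whether the replicate numbers pair the samples, and these correlations cannot decide it. With a replicate block 1341 genes were called, 655 of them higher, with 2 members higher and none lower, and Cd300ld3 was no longer called (adjusted p = 0.0545). The adjusted p of Cd300a, 0.0471 without the block, was above the threshold with it. Depth limits Cd300c, Cd300ld2 and Cd300ld4, which had between 0 and 187 counts per library, and Cd300c could not be fitted under filterByExpr, which removed it. Leaving out a library from a group of 3 changes the size of the test as well as its samples.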
